A study of Mus musculus with 18 samples.

Results

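The MHC class II presentation genes examined here are 10 mouse genes, chosen by name and not by any measured value: H2-Aa, H2-Ab1, H2-Eb1, Cd74, Ciita, H2-DMa, H2-DMb1, H2-DMb2, H2-Oa and H2-Ob. All 10 are among the 23337 genes of the deposited count table, and all 10 passed the filter on low counts that left 17143 genes for testing. They were followed in RNA from live CD45+ cells (white blood cells) taken from digested aortas and carotids of Apoe-/- mice of both sexes, which develop atherosclerosis. Every mouse was on the C57BL/6 strain, carried a Cx3cr1GFP and a Cd11cYFP reporter (Cd11c is the protein of Itgax), and was 7 months old after 5 months of Western diet, so all groups share the Apoe deletion, both reporters and the diet. Cells were sorted by fluorescence into YFP (GFP-YFP+, 5 libraries), DP (GFP+YFP+, 4 libraries), GFP (GFP+YFP-, 6 libraries) and DN (GFP-YFP-, 3 libraries), for 18 libraries in all. The labels do not say whether a library holds 1 mouse or a pool, or how the sexes were divided, so the p-values measure the spread between these libraries, which may be technical in part.

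MHC class II molecules are pairs of an alpha and a beta chain that show peptides from the endosome to CD4 T cells. Newly made pairs are held by the invariant chain (Cd74), whose remnant is exchanged for other peptides with the help of H2-DM, a complex of H2-DMa with H2-DMb1 or H2-DMb2. H2-DO, made of H2-Oa and H2-Ob, binds H2-DM and inhibits it, and is best known from B cells. Transcription of these genes is switched on by Ciita, a coactivator that has no DNA-binding role of its own and joins a protein complex on an X box and a Y box in front of the genes. Macrophages, dendritic cells and B cells are the usual class II cells in the artery wall. C57BL/6 mice make no E alpha chain, so H2-Eb1 is transcribed in them without its usual partner.

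The promoter stretches in front of the RefSeq gene start of 6 members are printed below. Each holds the letters of a Y box, which with the X box is where the complex that Ciita joins sits. A Y box within a set distance of that start was the condition for printing a stretch, as given below. They come from RefSeq promoter windows on GRCm38.p6 that run from 250 bases before to 50 bases after the gene start, and all lie on chromosome 17. The table holds a window for 7 of the 10 members, all except H2-Ab1, Cd74 and Ciita, and H2-DMa has more than one. Each stretch is read 5′ to 3′ on the gene's strand and is lined up on an ATTGG that starts 30 to 100 bases before the gene start, by which the 6 were chosen. Capitals mark a Y box (ATTGG, which is CCAAT on the other strand) and, where the letters match, an X box.
H2-Aa: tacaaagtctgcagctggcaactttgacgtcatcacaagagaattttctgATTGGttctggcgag
H2-Eb1: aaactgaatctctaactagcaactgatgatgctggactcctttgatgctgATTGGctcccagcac
H2-DMb1: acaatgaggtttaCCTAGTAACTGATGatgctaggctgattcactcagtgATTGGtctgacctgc
H2-DMb2: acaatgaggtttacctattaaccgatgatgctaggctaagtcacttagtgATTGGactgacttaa
H2-Oa: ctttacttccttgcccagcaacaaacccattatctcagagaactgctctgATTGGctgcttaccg
H2-Ob: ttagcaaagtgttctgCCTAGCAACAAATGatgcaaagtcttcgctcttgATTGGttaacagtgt

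The H2-Aa stretch is at chr17:34287857-34287921 on the minus strand, and the others are on the plus strand: H2-Eb1 at chr17:34305758-34305822, H2-DMb1 at chr17:34153080-34153144, H2-DMb2 at chr17:34145109-34145173, H2-Oa at chr17:34092286-34092350 and H2-Ob at chr17:34238798-34238862. The Y box began between positions -90 (H2-DMb2) and -43 (H2-Oa) relative to the RefSeq gene start. The gene coordinates given further below are from GENCODE and can start elsewhere. By these, the stretches of H2-DMb1 and H2-DMb2 lie within the gene, and that of H2-Oa runs into it. On either strand, the letters CCAAT occurred in 7 of the 8 member windows and in 37.4% of all 32851 windows. A longer X box consensus was searched on both strands: CC, any 2 bases, G, any 2 bases, AC, any 2 bases, then ATG. It does not overlap the Y box in the printed stretches. Full matches occurred in 2 of the 8, those of H2-DMb1 and H2-Ob, and in 0.749% of all windows. The H2-Eb1 and H2-DMb2 stretches hold near matches, which were not counted or capitalized. The 2 therefore do not show that the other members lack an X box. The stretches of H2-DMb1 and H2-DMb2 were identical at 56 of 65 bases, whereas every other pair was identical at 18 to 29 of 65. A match of letters is a description of the window and not evidence of binding.

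The libraries held 289166 (YFP replicate 6) to 27742113 (YFP replicate 1) gene counts, and all except YFP replicate 6 held at least 9790946. Several libraries stood apart. YFP replicate 1 and DN replicate 1 had summed B cell marker levels of 653 and 1592 CPM (counts per 1000000 of the library, scaled with TMM factors), against 23.9 to 183 CPM in the other 16 libraries. YFP replicate 5 had the highest summed macrophage marker level, 117277 CPM, and DN replicate 1 the lowest, 1891 CPM. DP replicates 4 and 5, sorted as GFP+, had only 9.43 and 0.427 CPM of Cx3cr1, against 92.7 and 118 CPM in DP replicates 1 and 2. They were also sorted as YFP+, and had only 38.6 and 47.8 CPM of Itgax, against 456 and 311 CPM in DP replicates 1 and 2. DN replicates 3 and 6, sorted as negative for both reporters, had 142 and 134 CPM of Cx3cr1 and 332 and 297 CPM of Itgax. YFP replicates 3, 4 and 6, sorted as GFP-, had 60.7, 60.01 and 104 CPM of Cx3cr1. The GFP libraries, for comparison, had 80.9 to 165 CPM of Cx3cr1 and 107 to 191 CPM of Itgax. Itgax in DP replicates 4 and 5, and in YFP replicate 6 (89.6 CPM, sorted as YFP+), was thus below every GFP library. YFP replicate 5 and DP replicate 5 had TMM factors of 0.445 and 0.533, against 0.862 to 1.75 elsewhere, so their CPM values are raised relative to their shares of counts. In these same libraries, of 2069 genes with a GFP mean of 30 to 60 CPM, 27.5% (YFP replicate 5) and 27.9% (DP replicate 5) were under 1/20 of that mean, against at most 0.725% in any other library. The part of this in the low values of Ciita, H2-DMb2, H2-Oa and H2-Ob in YFP replicate 5 or DP replicate 5 was not tested. Libraries numbered 1 or 2 detected 19245 to 21972 genes, whereas those numbered 3 to 6 detected 13150 to 18961. Member fold changes that rest on these libraries are given with and without them. Rank correlations and the lists of other genes are given over all libraries.

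The class II chains and the invariant chain were abundant in every subset. Per kilobase of exon, the median over 18 libraries was 7116 CPM for Cd74, 2241 for H2-Ab1, 1076 for H2-Eb1 and 617 for H2-Aa. The peptide exchange chains followed at 106 CPM per kilobase for H2-DMb1 and 39.4 for H2-DMa. Ciita was at 4.38, H2-DMb2 at 3.75, H2-Ob at 2.78 and H2-Oa at 2.76 CPM per kilobase. In this order the last 4 genes lie close together, and each of them varied far more than that between libraries.

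As a share of all gene counts, which does not depend on TMM scaling, the 10 genes together took 2.78 ± 0.864% in YFP (SD, n = 5), 2.01 ± 1.66% in DP (n = 4), 2.53 ± 0.589% in GFP (n = 6) and 2.14 ± 0.555% in DN (n = 3). Single YFP libraries held 2.28, 3.94, 2.20, 3.47 and 2.02% (replicates 1, 3, 4, 5 and 6). The DP libraries held 2.66, 4.02, 0.320 and 1.06% (replicates 1, 2, 4 and 5). The DP group thus holds both the highest share and the lowest one of the data set. GFP libraries ran from 1.98 to 3.44% with a median of 2.34%, and the DN libraries held 1.64, 2.05 and 2.74% (replicates 1, 3 and 6). The groups overlapped. In sorted bulk RNA, fewer class II cells and less class II RNA per cell cannot be told apart.

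**Figure D1:**
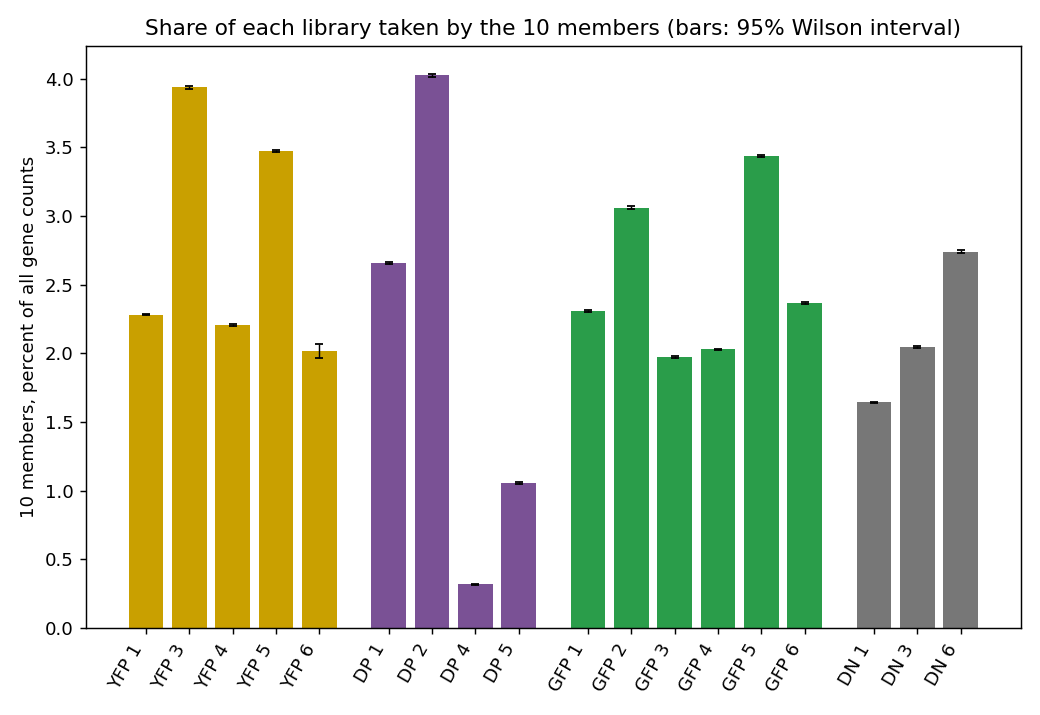
Share of each library's gene counts taken by the 10 genes (y axis, percent of all gene counts; error bars, 95% Wilson intervals, counting error only) in the 18 libraries, grouped as YFP, DP, GFP and DN. DP replicate 4 (0.320%) and DP replicate 5 (1.06%) are the lowest bars, and DP replicate 2 (4.02%) is the highest.

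H2-Ab1 encodes the beta chain of the A molecule and lies at chr17:34257689-34269419 (mm10, plus strand). It had 4255, 10240, 5791, 20784 and 4168 CPM in the YFP libraries (replicates 1, 3, 4, 5 and 6). The DP libraries had 6449, 8208, 578 and 3616 CPM (replicates 1, 2, 4 and 5). On this scale YFP replicate 5 is above, and DP replicate 4 below, every other library. The place of YFP replicate 5 depends on its TMM factor: as a share of all counts, H2-Ab1 took 0.924% there, below YFP replicate 3 (0.988%) and DP replicate 2 (1.03%). The GFP libraries ran from 4736 to 9199 CPM with a median of 5788 CPM, and the DN libraries had 1897, 5331 and 7213 CPM (replicates 1, 3 and 6). The ranges of all pairs of subsets overlapped, and GFP was the tightest group. The means were 9047 ± 7010 CPM in YFP, 4713 ± 3343 CPM in DP, 6105 ± 1602 CPM in GFP and 4814 ± 2695 CPM in DN (SD).

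H2-Aa (chr17:34282744-34287823, minus strand), the alpha chain of the same molecule, and H2-Eb1 (chr17:34305867-34316674, plus strand), the beta chain of the E molecule, followed H2-Ab1. H2-Aa averaged 3830 ± 2854 CPM in YFP, 2071 ± 1368 CPM in DP, 2595 ± 810 CPM in GFP and 2047 ± 863 CPM in DN. H2-Eb1 averaged 3839 ± 3284 CPM in YFP, 1997 ± 1326 CPM in DP, 2258 ± 770 CPM in GFP and 1758 ± 966 CPM in DN. For both genes the highest library by CPM was YFP replicate 5 and the lowest DP replicate 4, and by share of counts DP replicate 2 was above YFP replicate 5. The ratio of H2-Aa to H2-Ab1 counts, which no scaling can move, stayed between 0.370 and 0.571 over the 18 libraries, although H2-Ab1 itself spanned 578 to 20784 CPM. The ratio of H2-Eb1 to H2-Ab1 counts stayed between 0.317 and 0.552.

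Cd74 (chromosome 18, 60803848 to 60812652, plus strand), the invariant chain, had 7082, 21250, 13616, 37637 and 9556 CPM in the YFP libraries in the order given for H2-Ab1. DP libraries had 11982, 16266, 1414 and 11716 CPM. Values in GFP ran from 9856 to 22064 CPM with a median of 12270 CPM, and the DN libraries had 5082, 11337 and 18370 CPM. The same libraries are again at the ends by CPM, though by share of counts YFP replicate 5 (1.67%) was below YFP replicate 3 and DP replicate 2 (2.05 and 2.04%), and the groups again overlapped. Cd74 counts were 1.66 to 3.24 times those of H2-Ab1 in the same library.

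H2-DMa (chr17:34119541-34139101, plus strand), the alpha chain of H2-DM, had 130, 229, 131, 901 and 140 CPM in the YFP libraries. In DP the values were 111, 184, 22.5 and 291 CPM. GFP values lay from 116 to 309 CPM with a median of 146 CPM, and the DN libraries had 73.0, 102 and 188 CPM. Apart from YFP replicate 5, the YFP values lie within the GFP range. Reads of H2-DMa can overlap those of Brd2 on the other strand, and the labels do not state whether counting used the strand.

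H2-DMb1 (chr17:34153072-34160230, plus strand), the more abundant of the H2-DM beta chains, had 153, 343, 228, 759 and 161 CPM in the YFP libraries. Values in DP were 171, 243, 26.96 and 104 CPM. Across GFP libraries, values ran from 169 to 349 CPM with a median of 190 CPM, and the DN libraries had 65.6, 179 and 267 CPM. H2-DMb1 kept pace with H2-Ab1: there were 26.5 to 46.6 H2-DMb1 counts per 1000 H2-Ab1 counts in the 18 libraries. For H2-DMa the same ratio was wider, 17.3 to 80.4, and was highest in DP replicate 5.

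H2-DMb2 (chr17:34143307-34151555, plus strand), the other H2-DM beta chain, had 46.5, 19.1, 6.74, 41.5 and 0 CPM in the YFP libraries. The 0 in YFP replicate 6, the shallow library, allows a level of up to 8.96 CPM (3 counts). DP values were 17.1, 16.7, 6.27 and 0.107 CPM. GFP libraries had from 1.44 to 16.5 CPM with a median of 3.17 CPM, and the DN libraries had 115, 6.38 and 4.18 CPM. DN replicate 1, the library highest in B cell markers, was the highest of all 18. In that library there were 176 H2-DMb2 counts per 100 H2-DMb1 counts, so the usual order of the beta chains was turned round, while in the other 17 libraries H2-DMb2 gave 0 to 30.4 counts per 100. H2-DMb1 and H2-DMb2 are close copies, and no source used here says how reads common to both were counted, so their split is uncertain.

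H2-Ob (chr17:34238903-34254414, plus strand), the beta chain of H2-DO, had 116, 48.6, 12.0, 23.1 and 8.96 CPM in the YFP libraries. The DP libraries had 24.0, 26.7, 14.5 and 0.427 CPM. In the GFP subset, values ran from 6.47 to 21.9 CPM with a median of 9.42 CPM, and the DN libraries had 225, 15.4 and 12.0 CPM. The libraries with the most B cell marker RNA, DN replicate 1 and YFP replicate 1, were the highest and the second highest.

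H2-Oa (chr17:34092340-34095234, plus strand), the alpha chain of H2-DO, had 26.2, 15.8, 3.02, 0 and 2.99 CPM in the YFP libraries. The 0 of YFP replicate 5 allows up to 0.299 CPM by counting error alone. In the DP subset, values were 8.40, 12.9, 3.95 and 45.3 CPM. The GFP libraries ran from 0.904 to 10.4 CPM with a median of 1.27 CPM, and the DN libraries had 46.2, 3.81 and 1.76 CPM. DP replicate 5 and DN replicate 1 were the highest libraries, but in DP replicate 5 the partner chain H2-Ob was at its lowest, 0.427 CPM. YFP replicate 5 and DP replicate 5 are the libraries in which many genes were nearly missing, as given above. The part of this in their H2-Oa and H2-Ob values was not tested. BC051537, which lies antisense to H2-Oa, had no count in DP replicate 5 and 6.80 CPM in DN replicate 1.

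The ratio of H2-Oa plus H2-Ob counts to H2-DMa counts varied widely. It sets both H2-DO chains over the H2-DM alpha chain alone, without length, so it is read only between libraries. There were 109, 28.1, 11.4, 2.57 and 8.51 H2-Oa plus H2-Ob counts per 100 H2-DMa counts in the YFP libraries, and 29.1, 21.5, 82.1 and 15.7 in the DP libraries. GFP values ran from 3.23 to 23.1 with a median of 8.60. The DN libraries had 372, 18.8 and 7.29. DN replicate 1 and YFP replicate 1 were the only libraries above 100, and the other DN libraries lay within the GFP range. The part of B cells in these ratios was not tested.

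Ciita (chr16:10480059-10528418, plus strand), the transactivator, had 75.4, 97.7, 31.7, 1.20 and 29.9 CPM in the YFP libraries. The DP libraries had 74.9, 80.0, 13.2 and 0.747 CPM. Levels in GFP ran from 24.8 to 70.0 CPM with a median of 41.8 CPM, and the DN libraries had 92.9, 54.9 and 33.3 CPM. The means, 47.2 ± 38.7 CPM in YFP, 42.2 ± 41.0 CPM in DP, 45.5 ± 20.2 CPM in GFP and 60.4 ± 30.2 CPM in DN, were close beside their spread. YFP replicate 5, the library with the highest H2-Ab1 CPM, had only 12 Ciita counts, or 0.0576 Ciita counts per 1000 H2-Ab1 counts, against 2.70 to 49.0 in the 16 libraries other than YFP replicate 5 and DP replicate 5. These are the same libraries in which 27.5% and 27.9% of the genes of that level were nearly missing, as given above, and the part of this in the Ciita value was not tested. Dexi, which overlaps Ciita on the other strand, was at its highest there, with 99.7 CPM in YFP replicate 5 and 62.1 CPM in DP replicate 5.

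**Figure D2:**
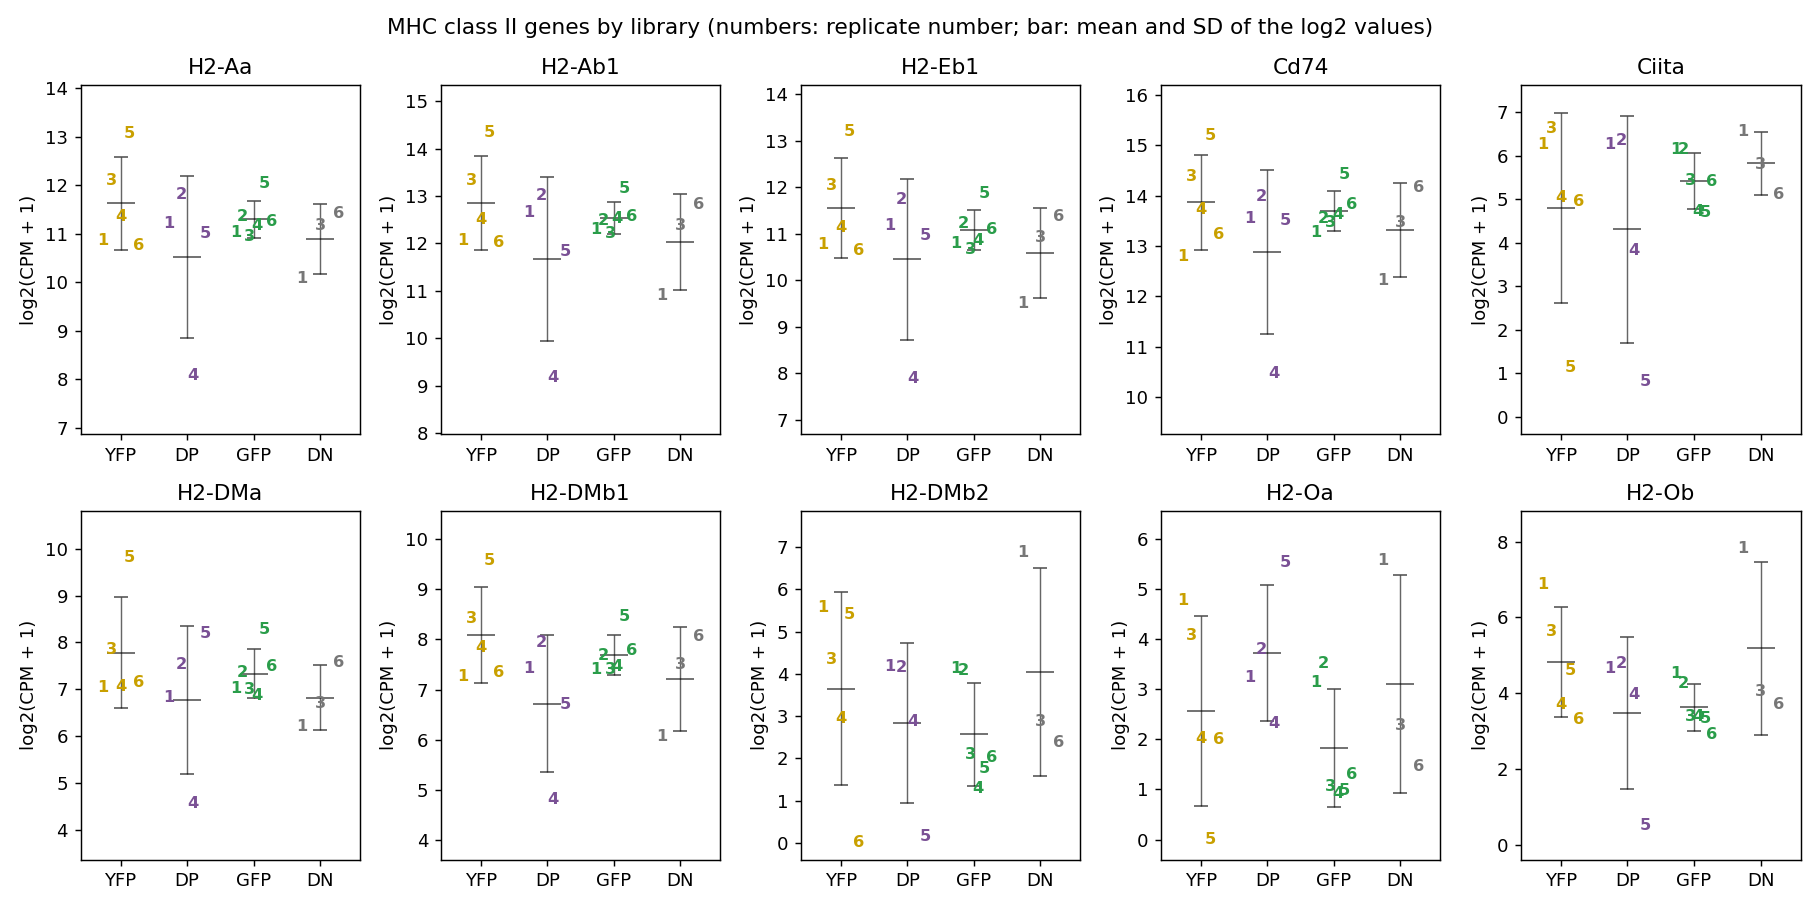
Levels of the 10 genes, one panel per gene (y axis, log2(CPM + 1)), in YFP, DP, GFP and DN; each digit is one library and gives its replicate number, and bars show the mean and SD of the log2 values. YFP replicate 5 is at the top for H2-Aa, H2-Ab1, H2-Eb1, Cd74, H2-DMa and H2-DMb1, and with DP replicate 5 at the bottom for Ciita; DN replicate 1 is at the top for H2-DMb2, H2-Oa and H2-Ob.

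**Figure D3:**
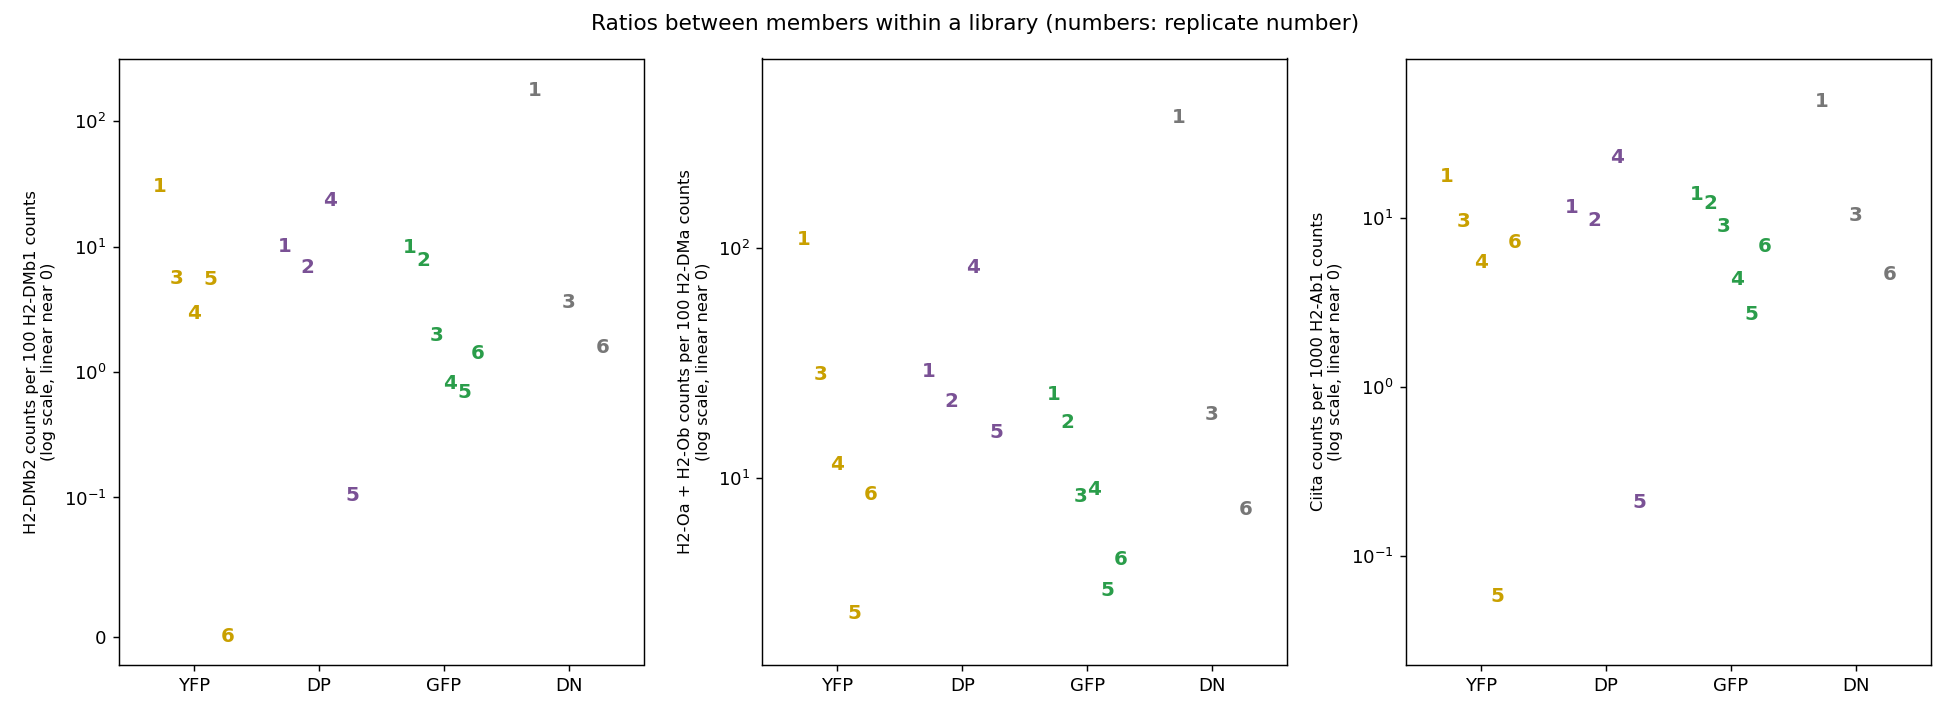
Ratios of counts within a library (log y axes, linear near 0): H2-DMb2 per 100 H2-DMb1 counts, H2-Oa plus H2-Ob per 100 H2-DMa counts and Ciita per 1000 H2-Ab1 counts, in YFP, DP, GFP and DN, with the replicate number as the mark. DN replicate 1 is the highest in all 3 panels, and YFP replicate 5 and DP replicate 5 are the lowest for Ciita.

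In the edgeR quasi-likelihood test with Benjamini-Hochberg adjustment over all 17143 genes, no member differed between any pair of subsets at an adjusted p under 0.05. DESeq2 also called 0 of the 10 in each comparison. The share of all tested genes called was 0% for YFP versus GFP, 0.198% for DP versus GFP, 0% for YFP versus DP, 0% for GFP versus DN, 0% for DP versus DN and 0% for YFP versus DN. A test of any difference among the 4 subsets called 0 members and 0.332% of all genes. H2-Ob had the smallest p of the members there, with an adjusted p of 0.506, and it was the 1 member with an unadjusted p under 0.05, beside 6.96% of all genes. The count of 0 members is near the background of all genes, and it does not show that class II levels were equal in the subsets.

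For YFP versus GFP, the question was whether Cd11c reporter cells without Cx3cr1 reporter differ in class II genes from cells with the Cx3cr1 reporter alone. All 10 log2 fold changes were above 0, with a median of 0.69, beside 0.04 for all genes tested. H2-Ob averaged 41.7 ± 44.2 CPM in YFP and 12.4 ± 6.08 CPM in GFP, a log2 fold change of 1.78 ± 0.82 (SE; unadjusted 95% interval 0.09 to 3.47; edgeR adjusted p = 0.685). H2-DMb2 averaged 22.8 ± 20.6 CPM in YFP and 7.12 ± 7.12 CPM in GFP, a log2 fold change of 1.72 ± 0.98 (edgeR adjusted p = 0.804). H2-DMa averaged 306 ± 335 CPM in YFP and 170 ± 71.9 CPM in GFP, a log2 fold change of 0.85 ± 0.58 (edgeR adjusted p = 0.900). H2-Ob was thus the only one of the 10 with an unadjusted p under 0.05, beside 7.02% of all genes. Without YFP replicate 5 the members' median was 0.12, with 8 of 10 above 0, and H2-DMa was at -0.05. Without YFP replicate 1, the YFP library highest in B cell markers, H2-Ob was at 1.003. The summed markers of B cells ran from 23.9 to 653 CPM in YFP and from 30.2 to 53.9 CPM in GFP, and those of macrophages from 9544 to 117277 CPM in YFP and from 19214 to 54328 CPM in GFP. Those of dendritic cells ran from 102 to 826 CPM in YFP and from 85.4 to 381 CPM in GFP, with 9 of 9 fold changes above 0 and a median of 1.33. Those of fibroblasts ran from 830 to 10443 CPM in YFP and from 230 to 1025 CPM in GFP, with 7 of 7 above 0 and a median of 2.74. No gene of these 4 lists passed the adjusted threshold here, and their part in the class II values was not tested.

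For DP versus GFP, 3 of 10 members were above 0 and 7 below, with a median of -0.17, beside 0.20 for all genes. With DESeq2's size factors in place of TMM, 5 were above 0 and 5 below, and leaving out single libraries moved the number above 0 between 3 and 9, so no direction is given for the set. H2-Oa averaged 17.6 ± 18.8 CPM in DP and 3.78 ± 4.23 CPM in GFP, a log2 fold change of 2.22 ± 1.09 (edgeR adjusted p = 0.746), and one of 1.21 without DP replicate 5. H2-DMb1 averaged 136 ± 92.6 CPM in DP and 214 ± 69.2 CPM in GFP, a log2 fold change of -0.65 ± 0.57 (edgeR adjusted p = 1.0). Cd74 averaged 10345 ± 6308 CPM in DP and 13739 ± 4364 CPM in GFP, a log2 fold change of -0.41 ± 0.58 (edgeR adjusted p = 1.0). No member had an unadjusted p under 0.05, beside 6.84% of all genes. DP replicates 4 and 5 and DN replicates 3 and 6 are among the libraries at odds with their reporter genes. Without them, which leaves DP replicates 1 and 2, all 10 members were above 0. Their median was 0.57, beside 0.34 for all genes, and H2-DMb1 and Cd74 were at 0.22 and 0.32. Among libraries numbered 3 to 6 alone, DP is only replicates 4 and 5. There 8 of 10 were below 0, with a median of -1.16, beside 0.21 for all genes. These settings thus set the parts of DP apart and are not independent checks. The summed markers of neutrophils ran from 16.8 to 38590 CPM in DP and from 8.98 to 288 CPM in GFP, and those of fibroblasts from 1195 to 11401 CPM in DP and from 230 to 1025 CPM in GFP. Their highest libraries were DP replicate 5 for neutrophils and DP replicate 4 for fibroblasts, and their part in these values was not tested.

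YFP and DP were both sorted as positive for the Cd11c reporter and differ in the Cx3cr1 reporter, though Itgax was low in some of their libraries, as given above. For YFP versus DP, 9 of 10 members were above 0, with a median of 0.94, beside -0.09 for all genes. H2-DMb1 averaged 329 ± 252 CPM in YFP and 136 ± 92.6 CPM in DP, a log2 fold change of 1.27 ± 0.60 (edgeR adjusted p = 0.714). H2-DMa averaged 306 ± 335 CPM in YFP and 152 ± 114 CPM in DP, a log2 fold change of 1.01 ± 0.66 (edgeR adjusted p = 0.932). H2-Ab1 had a log2 fold change of 0.94 ± 0.62 (edgeR adjusted p = 0.937). H2-DMb1 alone had an unadjusted p under 0.05, beside 6.73% of all genes. Without YFP replicate 5 the members' median was 0.02, with 5 of 10 above 0, H2-DMb1 was at 0.38, H2-Ab1 at 0.05 and H2-DMa at -0.42. Without DP replicate 4 the median was 0.57, with 8 of 10 above 0.

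For GFP versus DN, 6 of 10 members were above 0, with a median of 0.29, beside 0.04 for all genes, and the members that stood lowest were those of the low-abundance group. H2-Ob averaged 12.4 ± 6.08 CPM in GFP and 84.1 ± 122 CPM in DN, a log2 fold change of -2.77 ± 0.92 (edgeR adjusted p = 1.0). H2-DMb2 averaged 7.12 ± 7.12 CPM in GFP and 42.0 ± 63.6 CPM in DN, a log2 fold change of -2.56 ± 1.09 (edgeR adjusted p = 1.0). H2-Oa averaged 3.78 ± 4.23 CPM in GFP and 17.3 ± 25.1 CPM in DN, a log2 fold change of -2.19 ± 1.15 (edgeR adjusted p = 1.0). These DN means rest on DN replicate 1, in which the B cell markers summed to 1592 CPM, against 36.9 and 70.4 CPM in the other DN libraries. Its T cell markers summed to 1269 CPM, against 21.9 and 10.6 CPM there, and its neutrophil markers to 1577 CPM, against 78.7 and 74.0 CPM. The part of these markers in the values was not tested. Without that library H2-Ob was at -0.19, H2-DMb2 at 0.37 and H2-Oa at 0.38. With the replicate number as a block, H2-Ob was at -1.71, H2-DMb2 at -1.88 and H2-Oa at -1.63. H2-DMb2 and H2-Ob had unadjusted p-values under 0.05, beside 1.35% of all genes.

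For DP versus DN, 4 of 10 members were above 0, with a median of -0.10, beside 0.21 for all genes. With DESeq2's size factors 6 of 10 were above 0 with a median of 0.09. Without DP replicate 4 there were 7 of 10 with a median of 0.27. Among libraries numbered 3 to 6 there were 2 of 10 with a median of -1.12. Of these subsets, that setting holds only DP replicates 4 and 5 and DN replicates 3 and 6, at odds with their reporter genes. No direction is therefore given for the set. H2-Ob averaged 16.4 ± 11.9 CPM in DP and 84.1 ± 122 CPM in DN, a log2 fold change of -2.36 ± 1.04 (edgeR adjusted p = 1.0). H2-DMb2 had a log2 fold change of -2.07 ± 1.23 (edgeR adjusted p = 1.0), and Ciita one of -0.52 ± 0.995 (edgeR adjusted p = 1.0). H2-Ob was the 1 member with an unadjusted p under 0.05, beside 2.71% of all genes. Without DN replicate 1, H2-Ob was at 0.21 and H2-DMb2 at 0.87.

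For YFP versus DN, 6 of 10 members were above 0, with a median of 0.76, beside 0.06 for all genes. H2-DMa averaged 306 ± 335 CPM in YFP and 121 ± 59.9 CPM in DN, a log2 fold change of 1.34 ± 0.74 (edgeR adjusted p = 1.0). H2-Eb1 had a log2 fold change of 1.13 ± 0.70 (edgeR adjusted p = 1.0), and H2-DMb1 one of 0.95 ± 0.66 (edgeR adjusted p = 1.0). No member had an unadjusted p under 0.05, beside 2.69% of all genes. Without DN replicate 1 all 10 were above 0, with a median of 0.69 beside 0.44 for all genes. Without YFP replicate 5 the median was 0.24, with H2-DMa at 0.37, H2-Eb1 at 0.48 and H2-DMb1 at 0.38. Without DN replicate 1, H2-DMb1 was at 0.57. The comparisons share their DN, GFP, DP or YFP libraries, so they are not independent of each other.

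**Figure D4:**
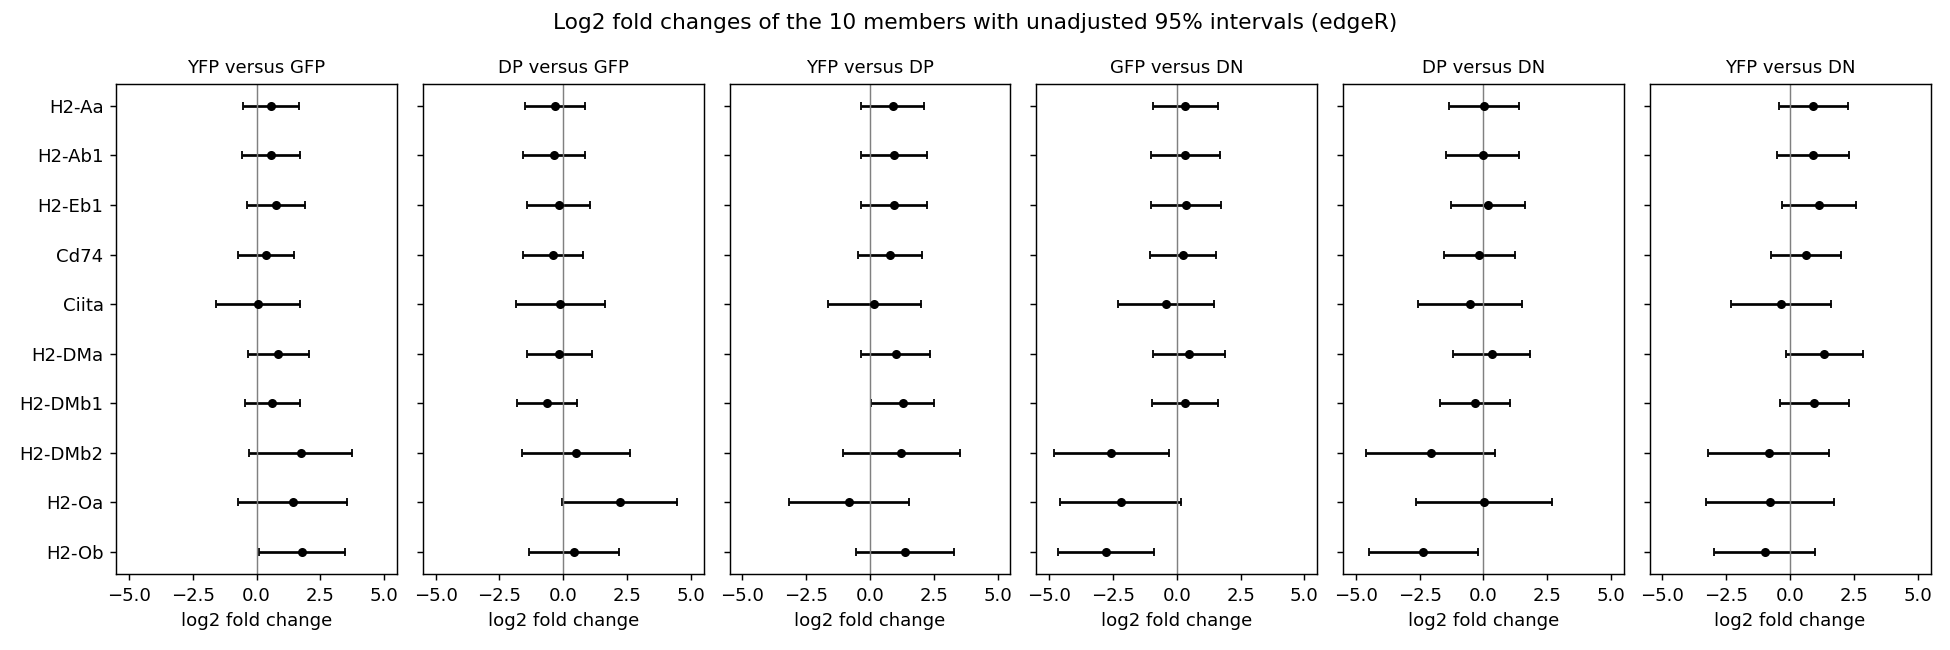
Log2 fold changes of the 10 genes (x axis; points, edgeR estimates; lines, unadjusted 95% intervals) in the 6 comparisons of YFP, DP, GFP and DN, the first-named subset over the second. Most intervals cross 0, and those of H2-DMb2, H2-Oa and H2-Ob are the widest.

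The members fell into separate patterns across libraries, described here by rank correlation over 18 libraries that share group, depth and library number. H2-Aa, H2-Ab1, H2-Eb1, Cd74 and H2-DMb1 had Spearman's rho of 0.91 to 0.98 with each other, and H2-DMa had 0.62 to 0.77 with them. Ciita had -0.14 to 0.08 with these 5 genes and 0.67 with H2-DMb2, 0.73 with H2-Ob and 0.59 with H2-Oa. These values include YFP replicate 5 and DP replicate 5, where Ciita had 1.20 and 0.747 CPM, and are not given without them. H2-DMb2 and H2-Ob had a rho of 0.95, whereas H2-DMb2 and H2-DMb1, whose promoter stretches are the most alike above, had 0.09. H2-Oa had 0.53 with its partner chain H2-Ob. These patterns also followed the number of genes detected, with which H2-Oa had a rho of 0.82, H2-Ob 0.71, Ciita 0.66 and H2-DMb2 0.65, against -0.47 to -0.22 for H2-Aa, H2-Ab1, H2-Eb1, Cd74, H2-DMa and H2-DMb1. Ciita was at 69.6 to 92.9 CPM in the 6 libraries numbered 1 or 2 and at 0.747 to 97.7 CPM in the 12 numbered 3 to 6. With the summed macrophage markers, Cd74 had a rho of 0.74 and H2-DMa 0.73, while Ciita had -0.63 and H2-Ob -0.61. With the summed B cell markers, H2-DMb2 had 0.52, H2-Oa 0.49 and H2-Ob 0.41. With the summed dendritic cell markers, the same genes had 0.63, 0.57 and 0.58. The part of depth and cell makeup in these patterns was not tested.

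**Figure D5:**
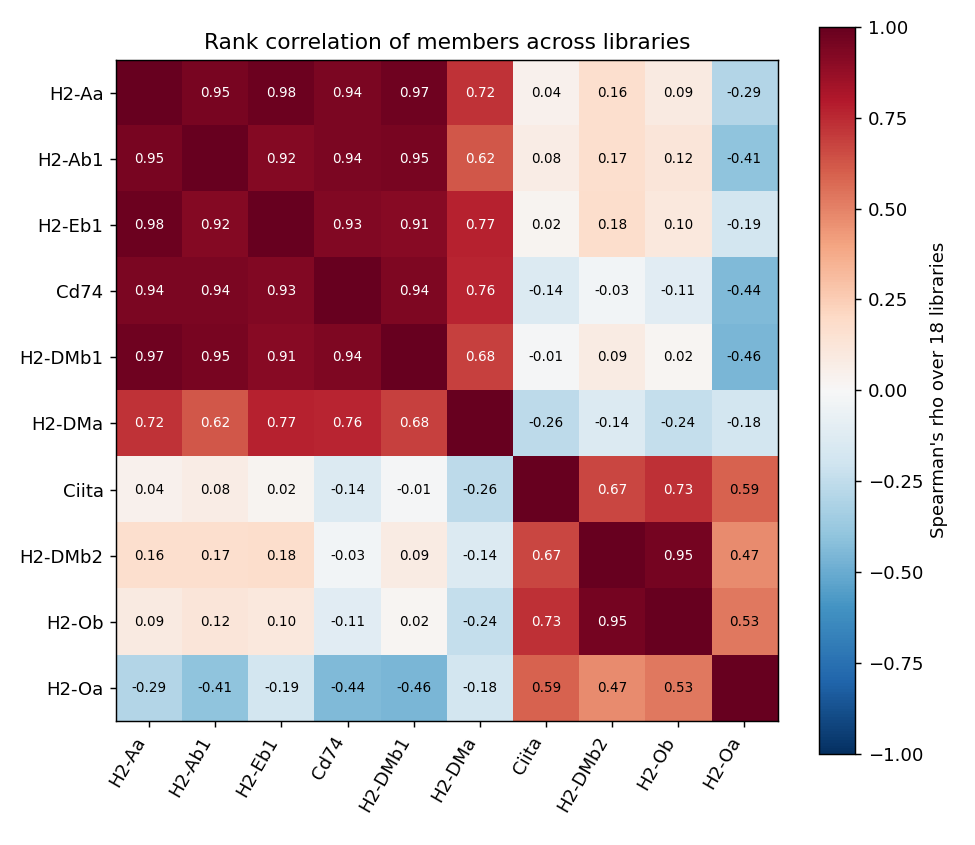
Spearman's rho between the 10 genes over the 18 libraries (color scale from -1 to 1, the value in each cell). H2-Aa, H2-Ab1, H2-Eb1, Cd74 and H2-DMb1 form a block of 0.91 to 0.98, H2-DMa joins it at 0.62 to 0.77, and Ciita, H2-DMb2, H2-Ob and H2-Oa form another of 0.47 to 0.95.

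Among 6695 genes with a mean of at least 20 CPM, the 10 outside the set whose levels most resembled the mean pattern of H2-Aa, H2-Ab1, H2-Eb1 and Cd74 were Psap (rho 0.88), which makes the saposins of the lysosome, Lsp1 (0.86), Gm2a (0.85), the lysosomal GM2 activator, Gadd45b (0.83), Abhd12 (0.83), Dpep2 (0.83), Ckb (0.82), Ucp2 (0.82), Bcl2a1d (0.82) and Dnase1l1 (0.82). H2-DMb1, at 0.97, was ahead of all of them. H2-DMa ranked 64 and Ciita ranked 4431 of the 6695.

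Other genes of the pathway were followed through lists, and none of their genes passed the adjusted threshold in any of the 6 comparisons. The transcription complex that Ciita joins was counted by 7 genes. Of these, 2 were above 0 in YFP versus GFP and 3 in DP versus GFP, with medians of -0.17 and -0.03. No gene of this list had an unadjusted p under 0.05 in any of the 6 comparisons. Nfyc, a subunit of the Y box factor, averaged 46.5 ± 18.6 CPM in YFP, 66.1 ± 50.2 CPM in DP, 53.5 ± 10.01 CPM in GFP and 50.3 ± 10.9 CPM in DN. Creb1 averaged 29.0 ± 18.7 CPM in YFP, 28.0 ± 20.2 CPM in DP, 48.3 ± 10.3 CPM in GFP and 49.99 ± 26.0 CPM in DN. Rfxank, a subunit of the X box factor, averaged 24.8 ± 26.1 CPM in YFP, 24.1 ± 16.6 CPM in DP, 15.1 ± 7.14 CPM in GFP and 14.6 ± 6.92 CPM in DN.

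The proteases and reductase that cut the invariant chain or antigens had 7 of 7 genes above 0 in the comparisons of YFP. The medians were 0.79 versus GFP, 1.21 versus DP and 0.81 versus DN, beside 0.04, -0.09 and 0.06 for all genes. These comparisons share the YFP libraries, so they are not independent. The list summed to 99866 CPM in YFP replicate 5, against 13050 to 53302 CPM in the other YFP libraries and 13138 to 39564 CPM in GFP. Its fold changes are not given without YFP replicate 5. Ctsl, which makes cathepsin L, had the smallest p of all these lists. It had 1042, 1216, 3307, 8476 and 719 CPM in the YFP libraries, against 215 to 1076 CPM in the GFP libraries, and the groups overlapped. Its log2 fold change for YFP versus GFP was 2.32 ± 0.68 (edgeR adjusted p = 0.308). Ctss, or cathepsin S, averaged 8104 ± 8541 CPM in YFP, 2353 ± 1226 CPM in DP, 3604 ± 2071 CPM in GFP and 3201 ± 3332 CPM in DN. Ctsb averaged 19680 ± 13249 CPM in YFP, 8495 ± 2431 CPM in DP, 13452 ± 5384 CPM in GFP and 11241 ± 10846 CPM in DN. Ctsd averaged 9944 ± 7257 CPM in YFP, 4083 ± 714 CPM in DP, 5180 ± 2634 CPM in GFP and 5990 ± 6401 CPM in DN.

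Genes of the interferon gamma pathway, which induces Ciita, had 1 of 8 above 0 in YFP versus GFP and 0 of 8 in DP versus GFP, with medians of -0.32 and -0.34. Ifngr1, a receptor chain, averaged 377 ± 91.6 CPM in YFP, 490 ± 169 CPM in DP, 568.4 ± 117 CPM in GFP and 594 ± 169 CPM in DN. Jak1 averaged 342 ± 108 CPM in YFP, 336 ± 120 CPM in DP, 431 ± 178 CPM in GFP and 508 ± 243 CPM in DN. Irf1, a transcription factor of this pathway, averaged 372 ± 116 CPM in YFP, 312 ± 208 CPM in DP, 448 ± 85.7 CPM in GFP and 377 ± 93.6 CPM in DN. The costimulation genes, which give T cells their second signal or restrain it, had 0 of 6 above 0 in YFP versus GFP and 2 of 6 in DP versus GFP. Cd86 averaged 400 ± 195 CPM in YFP, 242 ± 211 CPM in DP, 539 ± 214 CPM in GFP and 475 ± 422 CPM in DN.

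Class I presentation genes had 6 of 11 above 0 in YFP versus GFP and 6 of 11 in DP versus GFP, with medians of 0.04 and 0.00. H2-D1 averaged 6622 ± 3756 CPM in YFP, 5916 ± 2768 CPM in DP, 5624 ± 1249 CPM in GFP and 5397 ± 1854 CPM in DN. B2m, the light chain of class I, averaged 3730 ± 3358 CPM in YFP, 4352 ± 5939 CPM in DP, 2769 ± 1177 CPM in GFP and 2770 ± 1029 CPM in DN. Of the genes for turnover of class II at the surface, 2 of 5 were above 0 in YFP versus GFP and 2 of 5 in DP versus GFP. Cd83, which keeps class II at the surface by opposing a ubiquitin ligase, averaged 5683 ± 2336 CPM in YFP, 3304 ± 2917 CPM in DP, 7959 ± 2671 CPM in GFP and 6089 ± 4449 CPM in DN. Of the genes of the cell type marker lists, only Dcn and Mfap5, fibroblast genes, passed the adjusted threshold, in DP versus GFP (both adjusted p = 0.0361, edgeR).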

How the data were processed

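RNA of each sorted subset was amplified with the SMART-seq v4 kit (11 cycles) and made into libraries with Nextera XT, per the labels' protocols. The authors deposited a table of whole-number read counts per gene symbol, not normalized. TopHat 1.4.1, SAMtools, HTSeq 0.7.1 and the build mm10 are named in the submitters' processing notes; the annotation and the strand setting are not given in the sources used here. Groups and replicate numbers came from the sample labels.

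Genes were filtered with filterByExpr, scaled with TMM and fitted over all 18 libraries, with 1 mean per subset, in edgeR 4.0.16 (R 4.3.3) by the robust quasi-likelihood test; p-values were adjusted by Benjamini-Hochberg over 17143 genes, with a threshold of 0.05. The 6 pairwise comparisons and 1 test of any difference were made. CPM are counts per 1000000 of the TMM-scaled library; a count of 0 is given the limit of 3 counts, and 95% Wilson intervals and these limits cover counting error only, since the reads carry no molecular identifiers. Exon lengths and gene coordinates came from the GENCODE annotation of mm10. The fits were checked on simulated counts. DESeq2 1.42.0 and other scalings, filters and sets of libraries were alternatives.

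Levels are given for all 10 members, and tests for any member past the threshold and, in each comparison, the 3 of smallest p; of other lists, up to 3 genes of the highest mean CPM and any past the threshold are named. Ctsl was named after its values were seen. The members, lists and tests were chosen with earlier results of these data known. The replicate numbers were checked for pairing. Libraries of the same number in GFP and DN deviated together from their group means (r of 0.501 to 0.693 over 3 pairs). This is a hint of pairing from the data and not from a label. The main fit and its p-values did not use it, and the fit with a block is an alternative. In the other comparisons the lowest same-number r was between -0.212 and 0.076, and the numbers were not taken as pairs. In YFP versus GFP that lowest r, 0.009, was of YFP replicate 6, the shallow library, and the other same-number pairs had 0.266 to 0.562. No pair of libraries of the same subset agreed within sampling noise.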

Additional observations from a re-analysis of the deposited data

Results flagged for a closer look

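Of 30 groups of 4 to 6 libraries tested (10 genes in YFP, DP and GFP), 6 held a library that stood apart from the others by Dixon's criterion. By chance about 1 in 20 groups would, and the genes move together, so these are not separate events. GFP replicate 5 was high in 5 of them: it had 4184 CPM of H2-Aa, 9199 CPM of H2-Ab1, 3719 CPM of H2-Eb1, 309 CPM of H2-DMa and 349 CPM of H2-DMb1. Its share of counts taken by the 10 genes, 3.44%, was also the highest of the GFP group, and its summed macrophage markers, 54328 CPM, were as well. In YFP, replicate 5 had 901 CPM of H2-DMa, against 229 CPM in the next YFP library, and its summed macrophage markers were 117277 CPM. The part of these markers in the values was not tested.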

How the results depend on the processing

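No member was called in any comparison under any of the 29 alternatives, DESeq2 included. Of 522 alternative values of the 18 fold changes given in full, 502 kept their direction and 20 reversed it. Many of these values came from omitting a library of neither subset compared, which could move them only through the shared scaling, filter and spread. The 502 is therefore not a measure of how stable the fold changes are. Over omissions of single libraries, the ranges of the fold changes that turned sign were -0.049 to 1.47 for H2-DMa in YFP versus GFP, -0.71 to 0.17 for Cd74 in DP versus GFP, -0.42 to 1.68 for H2-DMa in YFP versus DP, -3.40 to 0.37 for H2-DMb2 and -2.98 to 0.38 for H2-Oa in GFP versus DN, and -2.82 to 0.87 for H2-DMb2 and -3.09 to 0.21 for H2-Ob in DP versus DN. Without DP 4 and 5 and DN 3 and 6, Cd74 was at 0.32 and H2-DMb1 at 0.22 in DP versus GFP. Without YFP 1 and DN 1, an alternative added after seeing the data, H2-DMb2 was at 0.41 and H2-Oa at 0.41 in GFP versus DN, and H2-DMb2 at 0.93 and H2-Ob at 0.27 in DP versus DN. Without DP 5 and YFP 5, also added, H2-DMa was at -0.12 in YFP versus GFP. The cause was not tested.

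The number of all genes called moved more. For DP versus GFP it was 34, against 92 with DESeq2's size factors, 62 with no filter, 351 with DESeq2, 188 among numbers 3 to 6, and 0 with the number set as a covariate, without DP 4 and 5 and DN 3 and 6, with only these 2 subsets, with total counts in place of TMM (added) and without DP 5 and YFP 5; single omissions gave 0 to 252. For YFP versus GFP it was 0, against 9 with no filter, 181 with DESeq2, 6 without YFP 1 and DN 1, and 0 to 11 over single omissions. DESeq2 called 130 for YFP versus DP, 25 for DP versus DN and 11 for YFP versus DN, and numbers 3 to 6 gave 9 for YFP versus DP and 1 for DP versus DN. Size factors moved the median of all genes in YFP versus GFP to 0.20, from 0.04 under TMM, and that of the members to 0.99, against 0.69. Total counts in place of TMM lowered the members' median to 0.30 in YFP versus GFP, and to 0.49, against 0.94, in YFP versus DP.

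With the replicate number as a block, 0 members were called in each comparison and 0 genes in DP versus GFP; the block turned none of the 18 fold changes given in full, but the number of members above 0 was 9 in YFP versus GFP, 2 in DP versus GFP, 7 in GFP versus DN, 1 in DP versus DN and 8 in YFP versus DN, so other members changed sign. GFP replicate 2 correlated with DN replicate 1 at 0.752, above its same-number pairs, so the pairing is a hint from the data.

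Depth limits the low members most. In YFP replicate 6, with 289166 counts, the 0 of H2-DMb2 allows up to 8.96 CPM, and 1 count of H2-Oa came to 2.99 CPM.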

Other observations

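H2-Eb2, another class II beta gene of the locus, had 353, 16, 0, 0 and 0 counts in the YFP libraries (replicates 1, 3, 4, 5 and 6), 42, 37, 0 and 2 counts in the DP libraries, 0 to 42 counts in the GFP libraries and 768, 14 and 0 counts in the DN libraries (replicates 1, 3 and 6). DN replicate 1 and YFP replicate 1 were thus the highest for it too. The E alpha pseudogene entry, H2-Ea-ps, had at most 12 counts in any library.

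Across the 18 libraries, the 10 genes whose levels most resembled the mean pattern of H2-Oa, H2-Ob and H2-DMb2, a set put together after its values were seen, included Ccr7 (rho 0.90), a chemokine receptor of migrating dendritic cells and lymphocytes, and Ppp3r1 (0.86), of 6698 genes. Ciita ranked 19 at 0.77, while Cd74 was at -0.16 and H2-DMa at -0.19.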
